A study of Mus musculus with 8 samples.

Results

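The ER chaperone, unfolded protein and heat shock genes are the machinery that folds proteins, clears those that fail to fold and reports on the load. They were chosen as 38 named genes with earlier results of these data known. Each was read from its brightest probe set with a single annotated symbol. Of the 38, 36 were measured among 19937 genes in all, and Hsp90ab1 and Hsf1 had no probe set named for them alone and were not analysed here. The arrays were made from total lung RNA of mice aged 21 postnatal days that had no treatment: 4 carried stabilized beta-catenin, and 4 were beta-catenin knockouts. Beta-catenin, encoded by Ctnnb1, relays Wnt signals to the nucleus and joins cadherins to the cytoskeleton. No Cre driver and no altered exons are named in the labels. The labels describe all mice as male, and no unmodified lung is among the groups. Which of the groups departed from a normal lung cannot be read from a difference between them.

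Secreted and membrane proteins fold in the endoplasmic reticulum (ER), helped by chaperones such as BiP (Hspa5) and by protein disulfide isomerases. When unfolded protein accumulates there, the sensors IRE1 (Ern1), ATF6 and PERK (Eif2ak3) start the unfolded protein response, which raises chaperones, enlarges ER-associated degradation and, through PERK and ATF4, slows translation and can lead to CHOP (Ddit3). The cytosol and mitochondria have their own heat shock proteins, driven largely by the transcription factor HSF1. In the lung, alveolar type 2 cells, club cells, mucous cells and plasma cells carry heavy secretory loads.

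Promoters of some of these genes are known to carry response elements, which were searched for here. The ER stress response element (ERSE), bound by ATF6 and XBP1 together with NF-Y, is CCAAT and CCACG separated by 9 bases. It was searched on both strands in the 250 bases before each RefSeq start site. It was found in 6 of the 30 members with a promoter window, namely Hspa5, Hsp90b1, Pdia6, Dnajc3, Creld2 and Syvn1, and in 35 of 27025 genes (0.13%). The elements are shown with 10 flanking bases on each side, on the gene's strand and in build GRCm38.p6, to let them be compared. The capitals mark the CCAAT and CCACG blocks, which read CGTGG and ATTGG where the element lies in reverse.
Hspa5 (chr2:34772015-34772053, plus strand): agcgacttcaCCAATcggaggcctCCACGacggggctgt
Hsp90b1, distal (chr10:86705628-86705666, minus strand): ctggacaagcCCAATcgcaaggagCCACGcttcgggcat
Hsp90b1, proximal (chr10:86705523-86705561, minus strand): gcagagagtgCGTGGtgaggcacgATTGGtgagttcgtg
Pdia6 (chr12:17266481-17266519, plus strand): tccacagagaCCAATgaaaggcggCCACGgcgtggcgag
Dnajc3 (chr14:118937817-118937855, plus strand): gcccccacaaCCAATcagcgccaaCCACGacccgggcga
Creld2 (chr15:88819510-88819548, plus strand): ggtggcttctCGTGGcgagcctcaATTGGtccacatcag
Syvn1 (chr19:6046522-6046560, plus strand): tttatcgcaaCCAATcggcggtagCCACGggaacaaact

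The heat shock element, searched as TTCNNGAANNTTC on both strands, was found in 2 of the 30 members and in 0.514% of all genes with a window. Both were the mitochondrial chaperonin genes Hspd1 and Hspe1, which are transcribed away from each other and share the element. It is shown once from each gene's strand, with the TTC and GAA units in capitals. In each window a match on one strand overlaps a match on the other.
Hspe1 (chr1:55088048-55088087, plus strand): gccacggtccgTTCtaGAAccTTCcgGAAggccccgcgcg
Hspd1 (chr1:55088047-55088086, minus strand): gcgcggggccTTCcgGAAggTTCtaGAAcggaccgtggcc
These matches describe letters in a window and do not show binding.

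As a check of the arrays, correlations over all genes were 0.993 to 0.996 within groups and 0.987 to 0.993 between them. Ctnnb1 was at log2 values of 11.14, 11.12, 11.02 and 10.99 in stabilized lungs and 10.98, 10.99, 10.92 and 11.03 in knockout lungs, with a limma adjusted p of 0.42. Its probe set may lie outside the altered exons, so it checks no label. Axin2, a direct target of beta-catenin that was chosen after its values were seen, had a mean of 7.26 in the stabilized group (SD 0.07) and of 7.20 in the knockout group (SD 0.12), with overlapping arrays and a limma adjusted p of 0.67. Lung markers were present, with Sftpc of alveolar type 2 cells at 13.10 to 13.27 in stabilized and 13.004 to 13.29 in knockout lungs. Against the label of male, 4 arrays, 2 in each group, had Xist at 10.36 to 10.59, while the other 4 lay at 4.18 to 4.62. Differences within each Xist pattern (2 against 2 arrays) are therefore given for the 9 called members and for the uncalled members where they were most uneven.

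Of the 36 members, 9 were higher in stabilized than in knockout lungs and 0 were lower (limma, adjusted p under 0.05). That is 25.0% of the members, where 4.65% of all genes were higher and 4.96% were lower, 9.62% in all. The 9 include Hspa8, whose probe sets disagreed in sign: 8 of 35 (22.9%) were higher without it, and 8 of 36 (22.2%) with Hspa8 read as the mean of its probe sets. At an unadjusted p under 0.05, which 24.7% of all genes reached, 16 members were higher and 1 was lower. The median difference of the members was 0.14 on the log2 scale, against -0.0069 over all genes and 0.067 over genes with a mean log2 value of at least 8. Of the 36, 31 were positive (86.1%), against 47.8% of all genes. Of the 4335 genes with a mean log2 value of at least 8, 9.43% were higher and 2.91% were lower, and of the 24 members at or above that level 7 were higher (29.2%) and 0 were lower. The arrays of the groups did not overlap in 12 members (33.3%), against 16.9% of all genes. When every array was shifted to a common median (centring), 64.4% of all called genes were higher, against 48.4% without the shift, and 11 members were higher and 0 lower. With dim genes left out (mean log2 value under 6) the share was 61.9%. Read from the brightest probe sets, the largest difference of a member was 1.36-fold. The count fell to 6 with the mean of all probe sets taken for every gene, and to 5 after repeated quantile normalization. It fell to 3, 3, 3 and 2 without stabilized replicate 1 or knockout replicates 1, 2 or 3.

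**Figure D1:**
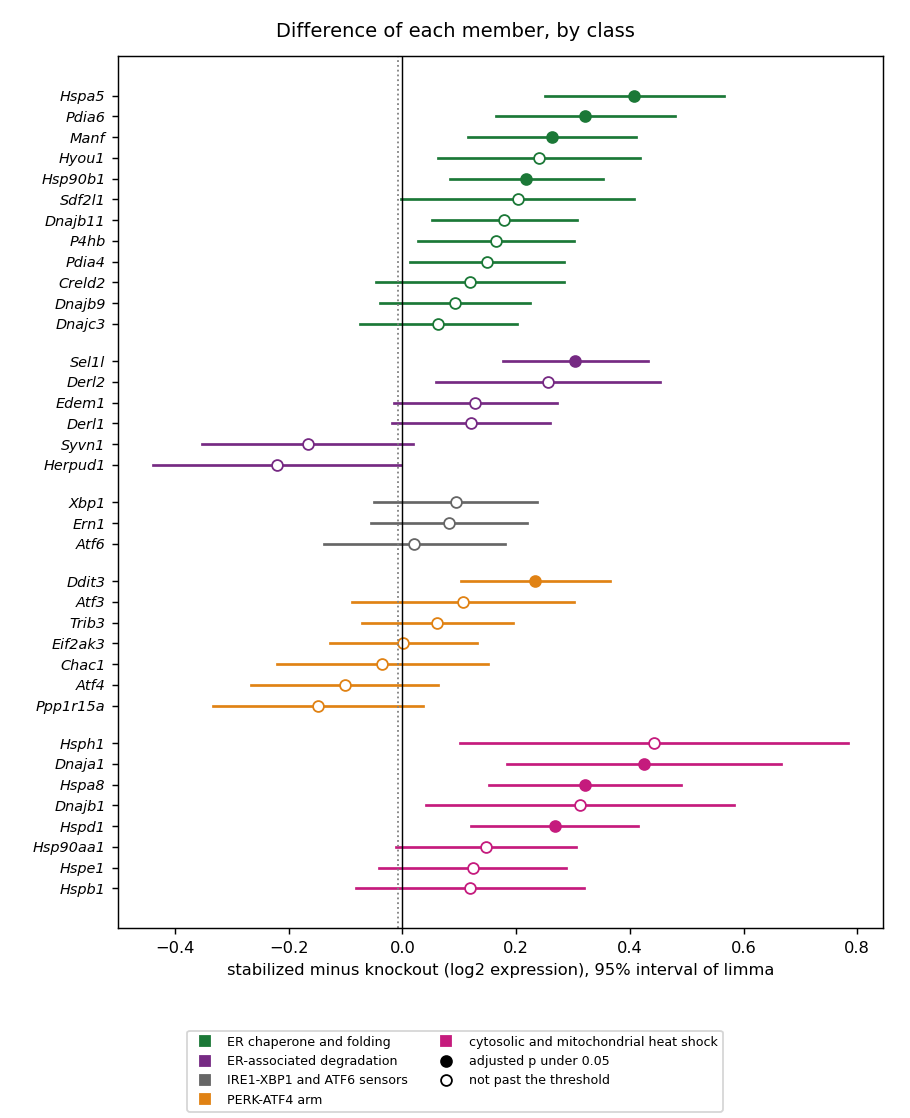
Difference of each of the 36 members between stabilized and knockout lungs (log2 expression, points) with its 95% interval from limma (lines), by class. Filled points passed the adjusted threshold, the dotted line is the median over all genes (-0.0069), and all 12 ER chaperones and all 8 heat shock genes lie above 0, Hspa8 on its brightest probe set only (-0.13 on the mean of its probe sets).

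The ER chaperones and folding factors had 4 members past the threshold, more than any other class in number. On the brightest probe sets their share of 33.3% was below the 37.5% of the heat shock genes. With the mean of all probe sets taken for every gene, the 4 ER calls held and the 3 heat shock calls were lost. Of 12 measured, 4 were higher, 0 were lower and 8 did not pass, with a median of 0.19, and all 12 differences were positive. Hspa5, which encodes BiP, the HSP70 of the ER lumen that also holds the stress sensors inactive, lay at 10.84, 10.74, 10.80 and 10.82 in stabilized lungs, against 10.30, 10.36, 10.33 and 10.58 in knockout lungs. Every stabilized array was above every knockout array, and knockout replicate 4 was nearest to the stabilized group. The difference was 0.41 ± 0.07 (SE), or 1.33-fold (limma adjusted p = 0.0036), and it was 0.52 and 0.30 within the arrays with high and with low Xist. Its call held whichever of the 8 arrays was omitted.

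The promoter of Hspa5 is shown over the 170 bases before its start (chr2:34771920-34772089, plus strand, GRCm38.p6), with the blocks of its ERSE in capitals, because it is the called member with the smallest p. The sequence is:
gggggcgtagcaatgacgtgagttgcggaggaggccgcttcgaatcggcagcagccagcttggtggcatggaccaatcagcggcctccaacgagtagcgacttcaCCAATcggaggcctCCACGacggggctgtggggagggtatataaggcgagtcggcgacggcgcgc

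Pdia6, a protein disulfide isomerase that also acts on the IRE1 and PERK sensors, lay at 10.10, 9.9998, 9.91 and 10.002 in stabilized lungs and at 9.65, 9.68, 9.57 and 9.83 in knockout lungs. The groups did not overlap, and stabilized replicate 3 and knockout replicate 4 were the nearest arrays. Its difference was 0.32 ± 0.07 (SE, limma adjusted p = 0.015), or 0.44 and 0.20 within the arrays with high and with low Xist, and the call held in 6 of 8 omissions of an array. Manf, a small secreted ER protein that protects cells from ER stress, lay at 7.79, 7.74, 7.87 and 7.82 in stabilized lungs and at 7.46, 7.46, 7.60 and 7.66 in knockout lungs. These did not overlap either, and the difference was 0.26 ± 0.07 (SE, limma adjusted p = 0.029), or 0.28 and 0.25 with high and with low Xist. Hsp90b1, which encodes GRP94, the HSP90 of the ER, lay at 11.09, 11.15, 11.05 and 11.04 in stabilized lungs and at 10.83 to 10.84 in knockout replicates 1 to 3, with knockout replicate 4 at 10.96. Its difference of 0.22 ± 0.06 (SE, limma adjusted p = 0.045) held its call in 1 of 8 omissions of an array, that of knockout replicate 4, and Manf in 2. The call of Hsp90b1 was also lost after repeated quantile normalization and with the Xist pattern as covariate (limma adjusted p = 0.064 and 0.057), and its difference was 0.23 and 0.20 with high and with low Xist.

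**Figure D2:**
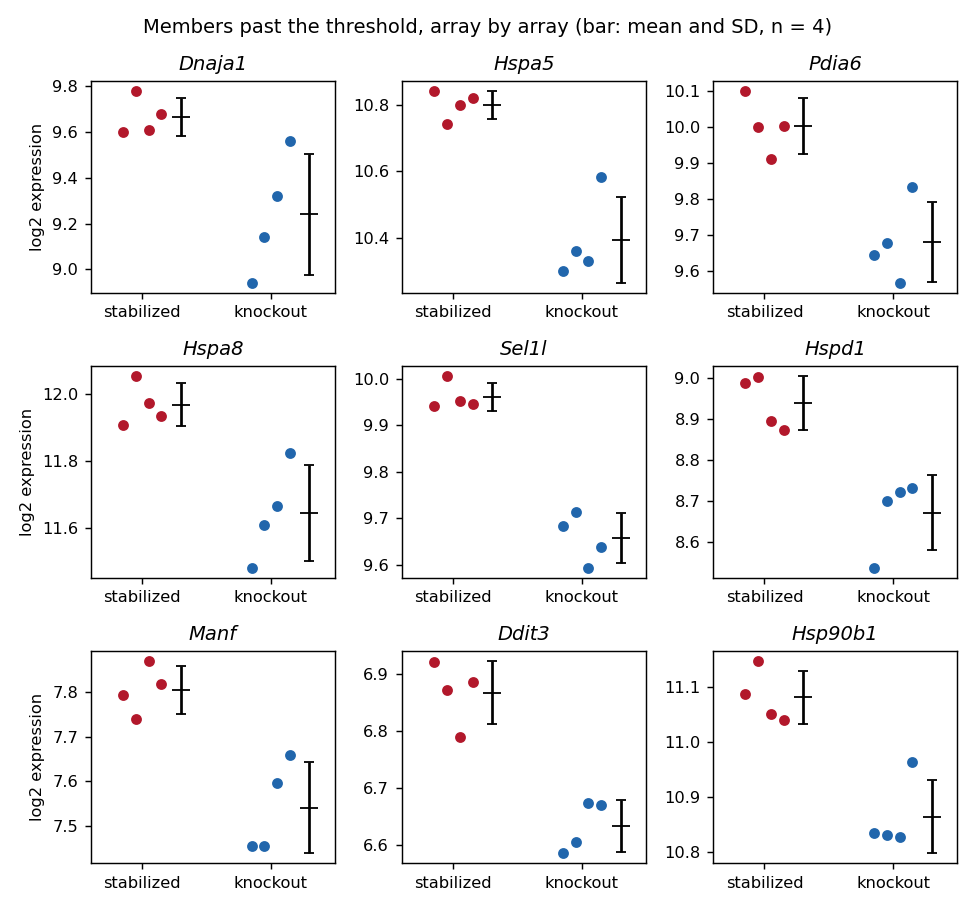
Log2 expression (vertical axes) of the 9 members past the threshold in each stabilized (red) and knockout (blue) array, replicates 1 to 4 from left to right, with mean and SD (bars, n = 4). The groups do not overlap in any of the 9, and knockout replicate 4 is the highest knockout array for Hspa5, Pdia6, Manf, Hsp90b1, Hspa8, Dnaja1 and Hspd1.

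The other 8 ER folding members had positive differences that did not pass. Hyou1, an HSP110-like exchange factor for BiP, differed by 0.24 ± 0.08, Sdf2l1, which works with ER J proteins, by 0.20 ± 0.09, and Dnajb11, a J protein of BiP, by 0.18 ± 0.06 (SE, limma adjusted p = 0.088, 0.21 and 0.078). Dnajb11 did not overlap between the groups, nor did P4hb, the classical disulfide isomerase, at 0.16 ± 0.06 (limma adjusted p = 0.13). The smallest differences were those of Pdia4 (0.15), Creld2 (0.12) and the J protein genes Dnajb9 (0.09) and Dnajc3 (0.06). Dnajb11 passed after centring, with a trend and robust prior, and when dim genes were left out, and Hyou1 passed after centring or without knockout replicate 4. Hyou1 differed by 0.41 within the arrays with high Xist and by 0.074 within those with low Xist. The 2 probe sets of Pdia4 differed in sign, at 0.15 for the brighter and -0.10 for the dimmer.

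A further list of 39 ER folding genes that are not members, also chosen with earlier results known, was read in the same fit. Of these, 12 were higher (30.8%), 1 was lower and 26 did not pass, with a median of 0.14. Hspa13, an atypical HSP70 of microsomes, had the smallest p, at 8.75, 8.77, 8.68 and 8.67 in stabilized lungs against 8.04, 8.21, 8.09 and 8.18 in knockout lungs. Its groups were well apart, with a difference of 0.59 ± 0.06 (SE, limma adjusted p = 1.0e-04). Ostc, a subunit of the oligosaccharyltransferase that attaches N-glycans, was higher by 0.46 ± 0.06, Prkcsh, the regulatory subunit of glucosidase II, by 0.29 ± 0.06, and Uggt2, a glycoprotein folding sensor, by 0.48 ± 0.10 (SE). P4ha1, a catalytic subunit of the collagen prolyl hydroxylase in which P4hb is the partner, was higher by 0.39 ± 0.08 (SE). The member of the list that was lower was Ero1b, an oxidase that recharges disulfide isomerases, at -0.31 ± 0.07 (SE, limma adjusted p = 0.016). The lectin chaperones Calr and Canx did not pass, with differences of -0.0089 ± 0.090 and 0.13 ± 0.06 (SE).

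Genes of ER-associated degradation, which return misfolded proteins to the cytosol for the proteasome, had differences of both signs. Of 6 members, 1 was higher, 0 were lower and 5 did not pass, with a median of 0.12. Sel1l, the adaptor of the HRD1 ligase complex, lay at 9.94, 10.01, 9.95 and 9.95 in stabilized lungs and at 9.68, 9.71, 9.59 and 9.64 in knockout lungs. Its groups did not overlap and both were tight, with SDs of 0.03 and 0.05. The difference of 0.30 ± 0.06 (SE, limma adjusted p = 0.0061) was 0.31 and 0.30 within the arrays with high and with low Xist, and its call held in all 8 omissions of an array.

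Syvn1, which encodes the HRD1 ligase itself, had the opposite sign to its adaptor. It lay at 7.96, 7.58, 7.93 and 7.92 in stabilized lungs and at 7.99, 8.02, 8.08 and 7.97 in knockout lungs, a difference of -0.17 ± 0.09 (SE, limma adjusted p = 0.25). Its groups only just failed to overlap, and stabilized replicate 2 stood below the rest. Herpud1, a stress-induced membrane protein of the same complex, lay at 9.91, 9.87, 10.28 and 10.13 in stabilized lungs and at 10.13, 10.17, 10.32 and 10.44 in knockout lungs. The groups overlapped, and the difference was -0.22 ± 0.10 (SE, limma adjusted p = 0.20). The retrotranslocation genes Derl1 and Derl2 differed by 0.12 ± 0.06 and 0.26 ± 0.09, and Edem1, which helps select misfolded glycoproteins, by 0.13 ± 0.07 (SE), without passing. Of 32 further genes of degradation and translocation, 1 was higher and 0 were lower, with 8 higher and 0 lower at an unadjusted p under 0.05 and a median of 0.08. The called gene was Ssr1, a subunit of the translocon-associated complex, at 0.24 ± 0.06 (SE, limma adjusted p = 0.027).

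The transcripts of the stress sensors and of XBP1 did not pass the test. Xbp1, the transcription factor that IRE1 activates by splicing its mRNA, differed by 0.09 ± 0.07, Ern1 by 0.08 ± 0.06 and Atf6 by 0.02 ± 0.07 (SE, limma adjusted p = 0.42, 0.46 and 0.89). Of these 3 genes 0 passed, also at an unadjusted p under 0.05. The 95% interval of Xbp1 ran up to 0.24 and that of Atf6 from -0.14 to 0.18, so changes of the size seen for Sel1l lie outside them. A probe set that sums an mRNA does not measure its splicing, and sensor activity is not measured by transcript level. Of 18 further sensor and transducer genes 0 passed in limma, with 3 higher and 2 lower at an unadjusted p under 0.05.

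The PERK-ATF4 arm, which slows translation and adjusts amino acid supply, had a median difference of 0.0019. Of 7 members, 1 was higher, 0 were lower and 6 did not pass. Ddit3, which encodes the stress transcription factor CHOP, lay at 6.92, 6.87, 6.79 and 6.89 in stabilized lungs and at 6.59, 6.61, 6.67 and 6.67 in knockout lungs. The groups did not overlap, with a difference of 0.23 ± 0.06 (SE, limma adjusted p = 0.029), or 0.27 and 0.19 with high and with low Xist, but 5 of 8 omissions of an array ended the call.

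The genes around Ddit3 in the same arm did not pass with it. Eif2ak3 (PERK) differed by 0.0019 ± 0.059, Atf4, the transcription factor of the arm, by -0.10 ± 0.08, and Ppp1r15a, which encodes the phosphatase subunit GADD34 that restores translation, by -0.15 ± 0.09 (SE). Trib3, a pseudokinase target of ATF4 and CHOP, differed by 0.06, the stress transcription factor gene Atf3 by 0.11, and Chac1, which degrades glutathione, by -0.04. The limma adjusted p of these 6 lay between 0.31 and 0.99. Of 37 further genes of the integrated stress response 0 passed in limma, 5 were higher and 2 lower at an unadjusted p under 0.05, and the median was 0.03. Asns, the asparagine synthetase gene that ATF4 induces, differed by 0.05 ± 0.08 (SE).

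The cytosolic and mitochondrial heat shock genes had a class median of 0.29, and all 8 differences were positive. Of 8 measured, 3 were higher, 0 were lower and 5 did not pass. With Hspa8 alone read as the mean of its probe sets, 7 of the 8 were positive, 2 were higher and the median was 0.21. With that mean taken for every gene, the 3 calls, those of Hspa8, Dnaja1 and Hspd1, were lost (limma adjusted p = 0.51, 0.058 and 0.065). The calls of this class thus rest on the brightest probe sets. Dnaja1, a J protein partner of cytosolic HSP70, lay at 9.60, 9.78, 9.61 and 9.68 in stabilized lungs, against 8.94, 9.14, 9.32 and 9.56 in knockout lungs. The groups only just failed to overlap, and knockout replicate 1 stood farthest below. The difference was 0.42 ± 0.11 (SE), or 1.34-fold (limma adjusted p = 0.031), it was 0.51 and 0.34 with high and with low Xist, and 6 of 8 omissions of an array ended the call. Its dimmer probe set gave 0.23, which did not pass.

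Hspd1, which encodes the mitochondrial chaperonin HSP60, lay at 8.99, 9.004, 8.90 and 8.87 in stabilized lungs and at 8.54, 8.70, 8.72 and 8.73 in knockout lungs. The groups did not overlap, and the difference was 0.27 ± 0.07 (SE, limma adjusted p = 0.027), a call that held in 3 of 8 omissions of an array. It was 0.30 and 0.23 with high and with low Xist. Its second probe set also gave 0.27, without passing on its own (limma adjusted p = 0.14). Hspe1 encodes its co-chaperonin, and the gene shares the promoter region shown above. It differed by 0.12 ± 0.08 on its brightest probe set (SE, limma adjusted p = 0.35) and by 0.02 on its dimmer one. RefSeq lists 5 pseudogene entries named for Hspd1, 7 for Hspe1 and 1 for Dnaja1, and probes may not tell such near-identical copies from the genes. Among members with 1 probe set, probe set numbers ran chromosome by chromosome. Hspd1 and Hspe1 lie on chromosome 1. By number, the brightest set of Hspd1 fell among members on chromosome 11, and that of Hspe1 between members on chromosomes 16 and 19. Whether these brightest sets read the genes themselves was not tested.

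Hspa8, the constitutive cytosolic HSP70 (HSC70), gave opposite answers on different probe sets. The brightest lay at 11.91, 12.05, 11.97 and 11.93 in stabilized lungs and at 11.48, 11.61, 11.67 and 11.83 in knockout lungs, a difference of 0.32 ± 0.08 (SE, limma adjusted p = 0.021), or 0.35 and 0.30 with high and with low Xist. A dimmer one had the same sign, at 0.38 ± 0.12 (SE, limma adjusted p = 0.075). The third lay at 10.46, 11.04, 10.62 and 10.52 in stabilized lungs and at 11.30, 12.08, 11.56 and 12.11 in knockout lungs. It was lower in stabilized lungs without overlap, by -1.10 ± 0.18 (SE, limma adjusted p = 0.0021 in a fit over all probe sets, added after the data were seen). Hspa8 lies on chromosome 9. By the order of probe set numbers described above, the lower set fell beside that of Hyou1, also on chromosome 9. The brightest set fell before that of Hsph1 on chromosome 5, outside the chromosome 9 run. Probe positions were not available, and which set reads the Hspa8 mRNA was not tested. The mean of the 3 probe sets differed by -0.13 ± 0.11 (SE), so the direction of Hspa8 is not settled by these arrays.

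**Figure D3:**
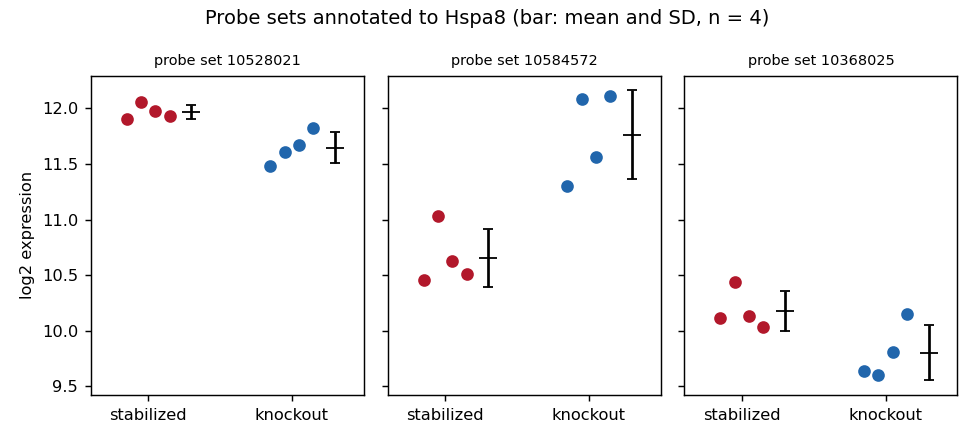
Log2 expression of the 3 probe sets annotated to Hspa8 in stabilized (red) and knockout (blue) arrays, replicates 1 to 4 from left to right, with mean and SD (bars, n = 4). The left and right probe sets differ by 0.32 and 0.38 (0.38 did not pass), and the middle one is lower in stabilized lungs, at -1.10.

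Other heat shock members differed positively without passing. Hsph1, an HSP110 exchange factor strongly induced by heat, had the largest difference of any member, at 8.44, 8.43, 8.47 and 8.73 in stabilized lungs and 7.58, 7.97, 8.26 and 8.50 in knockout lungs. The groups overlapped because knockout replicate 4 lay among the stabilized arrays, and the difference was 0.44 ± 0.16 (SE, limma adjusted p = 0.10). Without knockout replicate 4 it was 0.58 and passed (limma adjusted p = 0.022). Hsph1 differed by 0.66 within the arrays with high Xist and by 0.22 within those with low Xist, and Dnajb1 by 0.49 and 0.13. For Hspb1 the sign changed, at 0.30 with high and -0.066 with low Xist. Dnajb1, the heat-inducible J protein gene, differed by 0.31 ± 0.12, Hsp90aa1, the inducible cytosolic HSP90 gene, by 0.15 ± 0.07, and Hspb1, a small heat shock protein gene, by 0.12 ± 0.09 (SE). Hspa1a, the stress-inducible HSP70 gene, is no member and lay at 7.10, 7.08, 7.33 and 7.47 in stabilized lungs and at 6.81, 6.81, 7.04 and 7.03 in knockout lungs. Its groups did not overlap, and its difference of 0.32 ± 0.10 (SE) did not pass (limma adjusted p = 0.056).

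Of 41 further cytosolic heat shock genes, 6 were higher (14.6%), 1 was lower and 34 did not pass, with a median of 0.10. Chordc1, an HSP90 co-chaperone, was higher by 0.41 ± 0.09, the HSP90 immunophilin gene Fkbp4 by 0.36 ± 0.08, and the chaperonin subunit genes Cct3 and Cct8 by 0.27 ± 0.06 and 0.29 ± 0.07 (SE). Hspa12b, an atypical HSP70 gene of endothelium, was higher by 0.32 ± 0.09 (SE). The lower one was Hspb6, a small heat shock protein gene of muscle, at -0.42 ± 0.08 (SE, limma adjusted p = 0.0051), and beside it 4 of 14 cardiac and smooth muscle markers were lower. Of 14 mitochondrial chaperone and protease genes 0 passed in limma, with 4 higher and 0 lower at an unadjusted p under 0.05 and a median of 0.10.

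The knockout lungs varied among themselves in the heat shock class. The class mean was 9.40, 9.40, 9.39 and 9.48 in stabilized lungs and 8.96, 9.09, 9.20 and 9.33 in knockout lungs. All stabilized arrays were above all knockout arrays, with a spread of 0.09 among stabilized and 0.37 among knockout lungs. By gene, the SD was larger among knockout lungs in 6 of the 8, against 8715 of all 19937 genes. Hspb1 and Hspe1 varied more among stabilized lungs, with ranges of 0.48 and 0.28 there and of 0.14 and 0.16 in knockout lungs. Knockout replicate 1 was the lowest knockout array in 7 of the 8 genes and replicate 4 the highest in 7 of the 8, where 27.5% and 25.2% of all genes had those extremes. The further cytosolic list had replicate 1 lowest in 19 of 41 genes and replicate 4 highest in 21. In the ER chaperones replicate 4 was highest in 9 of 12, and their class mean was 9.35, 9.23, 9.32 and 9.30 in stabilized lungs and 9.08, 9.06, 9.06 and 9.19 in knockout lungs. The PERK-ATF4 class overlapped, at 7.01 to 7.17 in stabilized and 7.005 to 7.10 in knockout lungs.

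**Figure D4:**
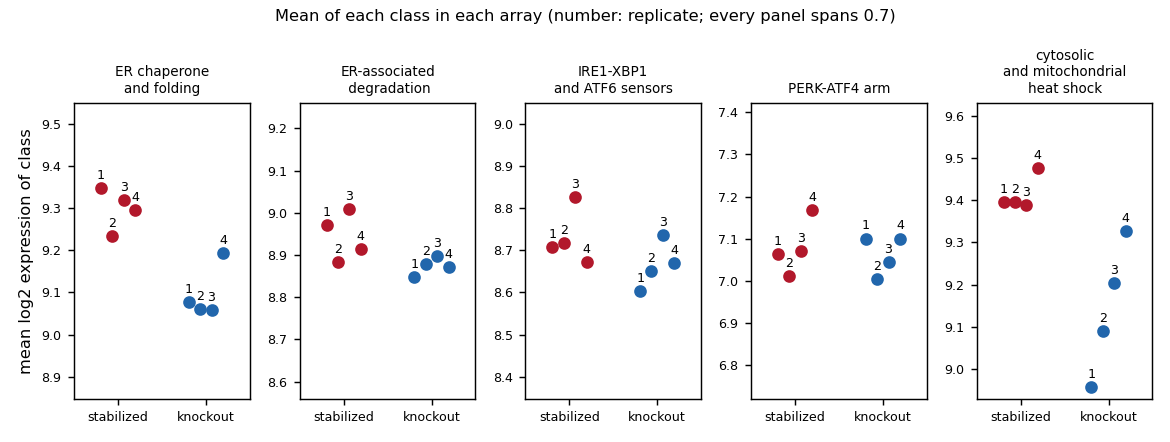
Mean log2 expression of each class in each array (vertical axes, each spanning 0.7), for stabilized (red) and knockout (blue) lungs, with replicate numbers. The groups separate in the ER chaperones and in the heat shock genes, and knockout replicate 4 is the knockout array nearest to the stabilized ones in both.

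Other genes were also uneven among the knockout lungs. The means of the endothelial markers were 10.23, 10.19, 10.22 and 10.21 in stabilized lungs and 10.12, 10.15, 10.18 and 10.21 in knockout lungs, with replicate 1 lowest and replicate 4 highest among knockout arrays in 6 of the 12 each. Egr1, an immediate early gene chosen after its values were seen, lay at 6.33, 6.09, 6.45 and 6.69 in stabilized lungs and at 7.49, 6.87, 6.67 and 6.04 in knockout lungs, highest in the knockout array where Hsph1 was lowest and lowest where it was highest. Fos, of the same kind, lay at 6.50, 6.68, 6.86 and 7.24 in stabilized lungs and at 7.64, 6.72, 7.04 and 6.35 in knockout lungs. Among stabilized arrays Egr1, Fos and Hsph1 were all highest in replicate 4, unlike in the knockout arrays. Cirbp, a gene induced by mild cold, lay at 8.05, 8.15, 7.91 and 7.81 in stabilized and 8.37, 8.20, 8.15 and 7.98 in knockout lungs. These 3 genes did not pass between the groups (limma adjusted p = 0.35, 0.80 and 0.22). Of 20 immediate early genes 1 was higher, Ier3 at 0.35 ± 0.08 (SE), and 0 were lower, with class means of 7.87 to 8.05 in stabilized and 7.87 to 8.12 in knockout lungs.

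Of 15 clock and cold-inducible genes, 3 were lower, 1 was higher and 11 did not pass, with class means of 8.16 to 8.39 in stabilized and 8.39 to 8.56 in knockout lungs. Nr1d1, the repressor REV-ERB alpha of the clock, was lower at 10.41, 10.36, 10.37 and 10.46 in stabilized lungs against 11.02, 10.89, 10.90 and 10.52 in knockout lungs. The output factor gene Hlf and the repressor gene Cry2 were lower by -0.54 ± 0.10 and -0.27 ± 0.07, and Clock was higher by 0.35 ± 0.09 (SE). The labels give no time of day, and the part of collection time, temperature or handling in the heat shock differences was not tested.

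**Figure D5:**
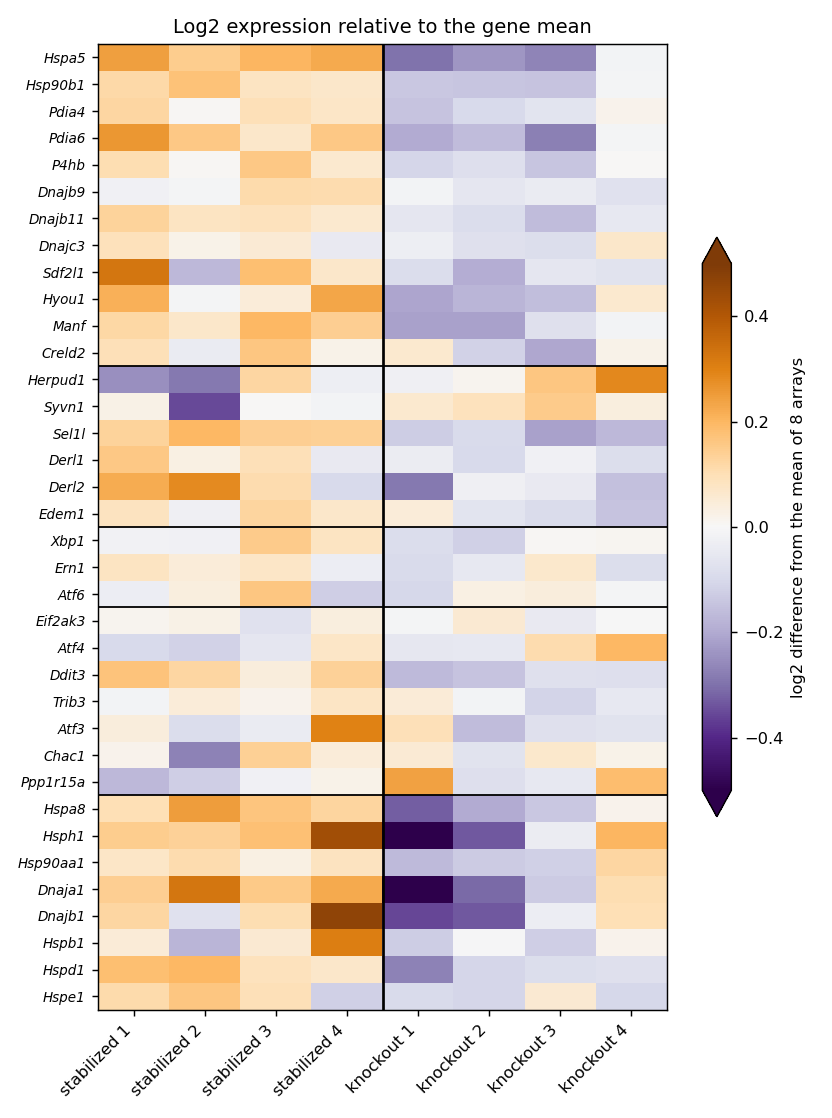
Log2 expression of the 36 members (rows, black lines between classes) in the 8 arrays (columns), as the difference from the gene's mean over all arrays. Orange is above and purple below that mean, and the palest knockout column in the ER chaperone rows is replicate 4.

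Markers of several cell types differed between the groups. In whole-lung samples, fewer cells of a type and less RNA per cell cannot be told apart. Markers of alveolar type 2 cells were higher in 9 of 12, with list means of 11.11 to 11.29 in stabilized and 10.84 to 10.94 in knockout lungs. Club cell markers were lower in 10 of 11, with list means of 8.0005 to 8.48 in stabilized and 9.25 to 9.84 in knockout lungs, and Scgb1a1 was lower by -0.51 ± 0.08 (SE). Ciliated markers were lower in 8 of 12 (5.96 to 6.14 in stabilized, 6.64 to 6.81 in knockout lungs) and mucous and gland markers in 4 of 12 (5.21 to 5.66 in stabilized, 6.01 to 6.31 in knockout lungs). Foxj1 of ciliated cells was lower by -0.62 ± 0.08 (SE, limma adjusted p = 3.8e-04).

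B and plasma cell markers were lower in 6 of 12, with list means of 5.75 to 5.94 in stabilized and 6.30 to 6.54 in knockout lungs. Among them Cd79a of B cells was lower by -1.86 ± 0.12, and Jchain of plasma cells differed by 0.39 ± 0.20 (SE, limma adjusted p = 0.26). Jchain was dim, with means of 4.90 in stabilized and 4.51 in knockout lungs. T and NK cell markers were lower in 9 of 11 (5.66 to 5.98 in stabilized, 6.49 to 7.32 in knockout lungs). Macrophage markers were higher in 4 of 10 and lower in 1, at 7.97 to 8.13 in stabilized and 7.72 to 7.88 in knockout lungs. Fibroblast markers were higher in 4 of 12 (10.06 to 10.20 in stabilized, 9.92 to 10.0003 in knockout lungs). Of 12 endothelial markers 0 passed in limma, with 2 higher and 0 lower at an unadjusted p under 0.05. The part of these cell types in the chaperone differences was not tested.

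Genes with an ERSE could be read as a group that was defined by sequence alone. Of the 35 such genes, 20 were measured, and 5 were higher (25.0%, against 4.65% of all genes) and 1 was lower, with a median of 0.08. The 6 members among them held 3 of the higher genes, Hspa5, Hsp90b1 and Pdia6, while Dnajc3, Creld2 and Syvn1 did not pass. Of the 14 others, 2 were higher (14.3%), Zfp57 and Olfr59, neither of which is in the gene lists used here. Olfr59 was dim, with means of 4.90 in stabilized and 4.56 in knockout lungs. Ero1b was lower, while Calr and Canx, which also carry the element, did not pass. The element was present in members that passed and in members that did not. Sel1l, Ddit3 and Dnaja1 were higher with no match to the ERSE letters in their windows, which says nothing about the factors.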

How the data were processed

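Lungs of 8 mice were measured on 8 Affymetrix arrays, and the deposited table gives a log2 expression value for every probe set on every array. Per the submitters' processing notes the authors used RMA and the affy package. RMA is meant to equalise the distributions of the arrays, so a change in total RNA would not show, and background in dim probe sets compresses their differences. In the deposited values the array medians still ran from 5.97 to 6.03 and the maxima from 13.35 to 13.67. Centring and repeated quantile normalization gave 11 and 5 members higher, in place of 9. Arrays have no read depth, and their number limits the precision.

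Of 34760 probe sets, 21640 had 1 gene symbol in the platform annotation, and the brightest probe set over the 8 arrays stood for each of 19937 genes. Stabilized minus knockout was tested over all genes in limma 3.58.1 under R 4.3.3 (lmFit and eBayes, no covariate, no filter), with Benjamini-Hochberg adjustment and a threshold of 0.05. Errors are limma's moderated standard errors (SE) or standard deviations (SD), with n = 4 per group. Where members or lists were counted, no test over the list was run. Nothing in the labels says whether litters or days were shared. Over all genes, samples with the same replicate number did not deviate together (correlations of -0.0051 to 0.084), which does not cover single members. Hsph1 and Dnajb1 were highest in replicate 4 of both groups. With the replicate number as a block their SE fell from 0.16 to 0.11 and from 0.12 to 0.075, while that of Hsp90b1 rose from 0.062 to 0.068. A shared batch or handling was not tested.

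The members and gene lists were chosen with earlier results of these data known. All members with a probe set could be named, and from each further list the members past the threshold, at most the 6 with the smallest p. Named whatever their values were Hspa1a, Calr, Canx, Asns, Fos, Cirbp, Scgb1a1, Sftpc, Cd79a, Foxj1 and Jchain. Hspa1b is annotated only together with Hspa1a on a shared probe set and was not analysed here. Of 397 list entries, 8 were matched through older symbols. Promoter sequence came from RefSeq (GRCm38.p6). The fit of stabilized against knockout was tested on simulated arrays of 19937 genes, where it recovered 85% of 100 genes given a log2 difference of 0.5 and 100% of 100 given a difference of 1, and called 7 unchanged genes. All member differences on the brightest probe sets were smaller than these sizes, and recovery at their size was not simulated. Alternatives were the mean of all probe sets, centring, repeated quantile normalization, a trend and robust prior, a filter on dim genes, a replicate block, the Xist pattern as covariate and leaving out each array.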

Additional observations from a re-analysis of the deposited data

Results flagged for a closer look

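Among 72 groups of 4 arrays, 36 members in each of the stabilized and knockout lungs, 6 held a value farther from the other 3 than Dixon's 95% criterion allows (8.33%, where chance gives about 1 in 20). Of these, 3 belonged to members past the threshold. Hsp90b1 stood at 10.96 in knockout replicate 4, above 10.83 to 10.84 in the other knockout arrays. Sel1l stood at 10.01 in stabilized replicate 2, above 9.94 to 9.95 in the other stabilized arrays. Hspd1 stood at 8.54 in knockout replicate 1, below 8.70 to 8.73 in the other knockout arrays.

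The remaining values belonged to members that did not pass. Syvn1 stood at 7.58 in stabilized replicate 2, below 7.92 to 7.96 in the other stabilized arrays. Hsph1 stood at 8.73 in stabilized replicate 4, above 8.43 to 8.47 in the others of its group. Hspe1 stood at 8.90 in knockout replicate 3, above 8.74 to 8.75 in the others of its group.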

How the results depend on the processing

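The number of members that were higher was 9, with 0 lower. It was 5 after repeated quantile normalization and 2 to 11 when 1 array was left out, with 2 without knockout replicate 3 and 11 without knockout replicate 4. With the mean of all probe sets taken for every gene it was 6. There Hspa8 turned in sign, and Dnaja1 and Hspd1 lost their calls (limma adjusted p = 0.058 and 0.065). It was 8 with Hspa8 alone left out or read as the mean of its probe sets, counts added after the data were seen. It was 1 of 36 within the arrays with high Xist and 0 within those with low Xist, fits on 4 arrays that were added after the data were seen. No member was called lower in these fits over genes. Over all genes, 1917 were called, 1216 to 1839 when 1 array was left out, and 670 and 354 within the arrays with high and low Xist. With the replicate number as a block 1828 genes and 8 members were called, among them Hsph1 and Dnajb1, while Hsp90b1, Ddit3 and Hspd1 were not. The labels do not say what samples with the same number share. Hspa5 and Sel1l kept their calls in all 7 other settings on 8 arrays and all 8 that left out 1, and Pdia6 in 7 and 6. The sign of Hspa8 turned with the mean of its probe sets (-0.13) and with its probe set of opposite sign alone (-1.10), which was called lower, and that of Pdia4 with its dimmer probe set (-0.10). The other changes of sign were among differences that did not pass. Chac1 was at 0.0015 after centring and 0.0054 after repeated quantile normalization, and between -0.087 and 0.049 when 1 array was left out. Atf6 was at -0.044 after repeated quantile normalization and -0.050 with high Xist, and between -0.030 and 0.066 when 1 array was left out. Eif2ak3 was at -0.051 after repeated quantile normalization and -0.050 with low Xist, and between -0.013 and 0.026 when 1 array was left out. Hspb1 was at -0.066 with low Xist. The causes were not tested.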

Other observations

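Genes chosen by a promoter motif alone, outside the members, were read in the same fit, where 4.65% of all genes were higher and 4.96% were lower. Of 67 measured genes with the heat shock element, 1 was higher and 4 were lower, with a median of 0.03. Of 488 with the ATF4 element (TGATGNAA, in 3.91% of all windows, and in those of the members Herpud1, Atf3 and Chac1), 16 were higher and 20 were lower, with a median of -0.02. Of 122 with the unfolded protein response element (TGACGTGG, in 0.603% of all windows and in 0 of the 30 members with a window), 7 were higher and 8 were lower.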
